A study of Mus musculus with 17 samples.

Results

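Elongating spermatids of the mouse were sorted into an early and a late population, and the 6 RNA-seq libraries of those populations are compared here: 3 of early elongating spermatids (EES) and 3 of late elongating spermatids (LES), chosen by their labels out of the 17 libraries of the series. The series covers 5 germ cell stages from leptotene to late elongating spermatids with 3 libraries each, and 2 further single libraries. Both populations came from testes of wild-type (WT) male C57BL/6JRj mice aged 3 months, with no transgene or treatment. The tissue was dissociated with collagenase and trypsin, and the cells were double stained with a Hoechst DNA dye and a SYTO nucleic acid dye, and sorted by flow cytometry. The labels do not say that libraries of a stage came from separate animals, so every p-value measures only how libraries differ, and that difference may be technical. In the main fit the spread behind each p-value, standard error and interval was estimated from the 15 libraries of all 5 stages, not only from the 6 compared.

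Spermiogenesis turns a round haploid cell into a sperm. As a background, histones are first exchanged for transition proteins and then for protamines, the acrosome and the tail are completed, and transcription is shut off while the nucleus condenses, so that late spermatids translate messenger RNAs made and stored earlier. Early and late elongating spermatids lie on either side of that condensation, and the comparison asks which RNAs differ between them.

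The EES libraries held 90.6, 96.9 and 121.2 M reads in replicates 1 to 3 and the LES libraries 101.1, 97.2 and 113.8 M reads (M, mega). Levels are given in RPKM, the reads of a gene divided by its exon length in kilobases and by the M reads of its library, and fold changes are differences of the deposited log2 values, LES minus EES, with the standard error (SE) of limma. Genes at 1 RPKM or more numbered 6580, 9027 and 7258 in the EES libraries and 7492, 7021 and 8368 in the LES libraries, so EES replicate 2 and LES replicate 3 held the most detected genes of their stage. EES replicate 2 correlated across genes with the LES libraries at a Spearman coefficient of 0.892 to 0.904, whereas EES replicate 3 and LES replicate 1, of different stages, correlated at 0.989. Of the summed squares of the 6 libraries around each gene's mean, 16.6% lay between the stages, 47.7% came from EES replicate 2, 22% from EES replicate 1, 13.6% from LES replicate 3 and 4.61% to 7.5% from each of the other 3.

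The labels were first checked against genes that define elongating spermatids. Prm1, the protamine that packs sperm DNA (chromosome 16, 10796332 to 10796823, GRCm38.p6), was at 28436, 9452 and 23462 RPKM in EES and at 23810.1, 24591 and 23495 RPKM in LES, against 170.0 ± 56.9 RPKM (SD, n = 3) in round spermatids (RS). Prm2, its partner in the same gene cluster, was at 26577, 10446 and 23936 RPKM in EES and at 25434, 25264 and 23841 RPKM in LES. Odf1, of the outer dense fibres of the tail, was at 2865, 1475 and 2655 RPKM in EES and at 2324, 2345 and 2592 RPKM in LES. All 3 markers were high in all 6 libraries. For Prm1 and Prm2 the LES libraries overlapped with EES replicates 1 and 3, and for Odf1 they lay below both. EES replicate 2 was the lowest of the 6 for each of the 3 genes.

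Of 13260 genes tested, 1 was called higher in LES and 0 were called lower (0.00754% called), at a Benjamini-Hochberg adjusted p under 0.05 in limma and a log2 fold change of at least 1 in size. Without a correction for the number of genes, 919 had a p under 0.05. The called gene was Rab26os, a long non-coding RNA on chromosome 17 (24528251 to 24528744, GRCm38.p6) beside Rab26, a gene of vesicle traffic. It was at 0 RPKM in all 3 EES libraries and at 0.166, 0.0690 and 0.206 RPKM in the LES libraries (log2 fold change 3.85 ± 0.50, SE; limma adjusted p = 0.041), and in RS at 0.215 ± 0.141 RPKM (SD, n = 3). At 298 bases, the shortest exon length that turns its values into whole reads, these were 5, 2 and 7 reads. Against a floor of 3 reads over the EES group, its level in LES was at least 4.61-fold higher. The gene has no call on a log2(RPKM + 1) scale or without LES replicate 3 (limma adjusted p = 0.906 and 0.059), and whether the libraries keep strand is not stated.

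The number of calls moved with single libraries. Leaving out EES replicate 1 gave 4 genes higher and 3 lower in LES, leaving out EES replicate 2 gave 15 higher and 0 lower, and leaving out EES replicate 3 gave 8 and 1. Without LES replicate 1 there were 57 higher and 0 lower, without LES replicate 2 there were 6 and 0, and without LES replicate 3 there were 1 and 3. The 15 genes of the comparison without EES replicate 2 (0.113% called) were low: 13 of them had both stage means under 1 RPKM and 0 reached 8 RPKM. Among them were 8 protein-coding genes, such as Ifngr1, a chain of the interferon gamma receptor (0.0233, 0.130 and 0.0493 RPKM in EES; 0.333, 0.564 and 1.92 RPKM in LES), and 4 genes of small RNAs. Jun, an immediate-early transcription factor, was called higher without LES replicate 3 (0.0302% called in that comparison, the other 3 calls being Mir6913, Mir6979 and Snord32a, called lower). Without both EES replicate 2 and LES replicate 3, 22 genes were called (0.166%), 18 higher and 4 lower, and 11 of them were also among the 15. Weighting libraries by their fit, which gave EES replicate 2 a weight of 0.0626 and EES replicate 3 one of 5.83, called 357 higher and 55 lower.

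Fold changes of at least 2 without regard to p showed the same dependence. With all 6 libraries 732 genes were 2-fold or more higher in LES and 497 lower. Without EES replicate 2 these became 1435 and 48, and without LES replicate 3 they became 357 and 727. Of the 497 lower genes, 40 were still 2-fold lower without EES replicate 2 and 246 had changed direction. Of the 732 higher genes, 620 were still 2-fold higher without EES replicate 2 and 341 without LES replicate 3. The median log2 fold change of all genes went from 0.03 with all libraries to 0.22 without EES replicate 2, and the direction changed for 5483 genes (41.3%). Leaving out LES replicate 3 changed the direction of 1630 genes (12.3%).

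**Figure D1:**
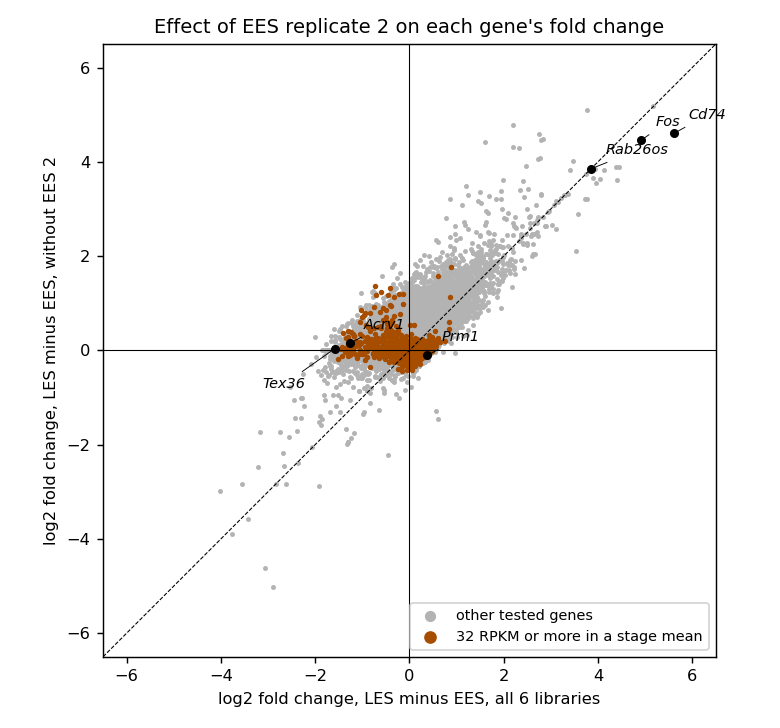
Each point is a tested gene, with its log2 fold change (LES minus EES) from all 6 libraries on the horizontal axis and without EES replicate 2 on the vertical axis; the dashed line marks equal values. The abundant genes, in brown, spread along the horizontal axis down to Tex36 and Acrv1 and lie mostly near 0 on the vertical axis, while Cd74, Fos and Rab26os stay far above 0 on both. Abundant means a stage mean of at least 32 RPKM over all libraries, which Tex36 and Acrv1 reached only through EES replicate 2.

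Among abundant transcripts the stages were close. In 1464 genes with a stage mean of at least 32 RPKM, the median size of the log2 fold change was 0.208 with all libraries and 0.072 without EES replicate 2, and 0 of these genes were called with all libraries, without EES replicate 2, without LES replicate 3 or without both. With all libraries 1 of them was 2-fold higher and 49 were 2-fold lower, and without EES replicate 2 the counts were 12 and 0. The stage means included EES replicate 2, and Tex36 and Acrv1, which are among the 49, passed the limit only through it. The fall from 49 to 0 thus in part follows from that limit. The 95% confidence interval of the log2 fold change lay between -1 and 1 for 57.1% of the 1464 genes with all libraries and for 72.7% without EES replicate 2, so a 2-fold change in LES lay outside the interval for those genes. For the rest the spread between libraries did not bound a change of that size.

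**Figure D2:**
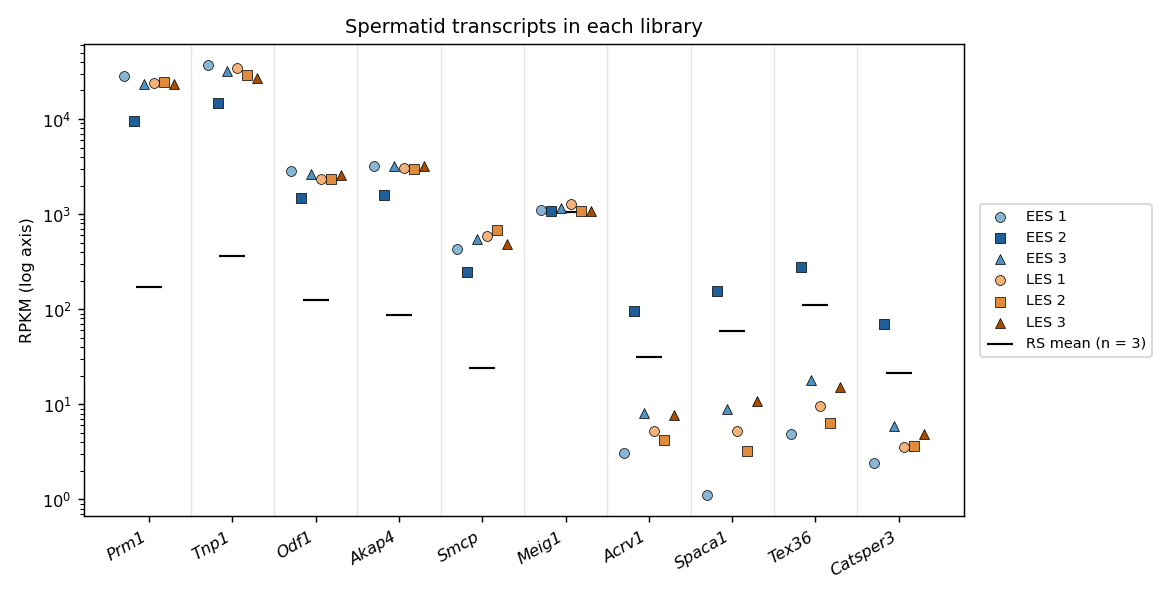
Levels in RPKM (log axis) of 10 spermatid genes in each of the 3 EES (blue) and 3 LES (orange) libraries, with the round spermatid mean as a black bar. EES replicate 2 (dark blue square) lies below the other 5 for Prm1, Tnp1, Odf1, Akap4 and Smcp and above them for Acrv1, Spaca1, Tex36 and Catsper3.

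Of the genes of chromatin condensation, Tnp2 and Prm3 were lower in all LES libraries than in EES replicates 1 and 3. For Prm1, Prm2 and Tnp1 the LES libraries overlapped with those replicates. Tnp1, the main transition protein (chromosome 1, 73015074 to 73015899), was at 36638, 14671 and 31896 RPKM in EES and at 34127, 29189 and 26948 RPKM in LES. Tnp2, the second transition protein, was at 29067, 10630.4 and 23876 RPKM in EES and at 20082, 23574 and 19522 RPKM in LES. Prm3, of the same list, was at 1376, 665.2 and 1233 RPKM in EES and at 1111, 1139 and 1125 RPKM in LES. The 5 protamine and transition protein genes summed to 122093, 45866 and 104403 RPKM in EES and to 104565, 103757 and 94931 RPKM in LES, against a mean of 1043 RPKM in RS. All 5 were lowest in EES replicate 2, beside 2638 of all 13260 tested genes, and 0 of 5 were called. Their median log2 fold change was 0.22 with all libraries and -0.19 without EES replicate 2, beside 0.03 and 0.22 over all tested genes, so its sign depended on that library. For Prm1 the log2 fold change was 0.38 ± 0.50 (SE) with a 95% interval of -0.71 to 1.46, and without EES replicate 2 it was -0.11 with an interval of -1.18 to 0.97, which leaves a change of about 2-fold in either direction within the interval. Both intervals rest on a spread shared by the libraries of all 5 stages and not on EES and LES alone. The values of EES replicates 1 and 3 and of LES lay between 23462.5 and 28435.5 RPKM.

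Of the spermatid histone variants, H1f7, the linker histone of elongating nuclei, was at 2152 RPKM in EES replicate 1, 990.6 RPKM in EES replicate 2 and 1939.6 RPKM in EES replicate 3, and at 1785, 1931 and 1812 RPKM in LES. H1f6, the testis linker histone best known from spermatocytes, was much lower, at 3.74, 10.7 and 13.6 RPKM in EES and 17.4, 8.503 and 36.8 RPKM in LES (log2 fold change 1.11 ± 0.60, SE; limma adjusted p = 0.845). The stages overlapped for both, for H1f7 only through EES replicate 2, and LES replicate 3 was the highest of all for H1f6. In this list 0 of 11 tested members were called. Several histone variant genes have near-identical copies, so single members are uncertain.

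Among genes of the tail and its sheaths EES replicate 2 was low for some and high for others. It was the lowest library for 5 and the highest for 5 of 12 outer dense fibre genes, and for 5 and 8 of 14 fibrous sheath genes. Over all 13260 tested genes it was the lowest for 2638 and the highest for 6921. Akap4, the scaffold of the fibrous sheath, was at 3244, 1601 and 3236 RPKM in EES and at 3043, 3022 and 3242 RPKM in LES. Odf2, of the outer dense fibres, was at 1152, 688.3 and 1163 RPKM in EES and at 1131, 1205 and 1106 RPKM in LES, and its log2 fold change of 0.24 had a 95% interval of -0.41 to 0.88. EES replicate 2 was the lowest library for both, and the other 5 lay close together. Smcp, a protein of the mitochondrial capsule, was at 431.9, 244.3 and 551.1 RPKM in EES and at 594.5, 674.3 and 486.6 RPKM in LES (log2 fold change 0.58 ± 0.44, SE; limma adjusted p = 0.882). Gpx4, the selenoenzyme that becomes a structural protein of that capsule, was at 692.9, 360.4 and 570.5 RPKM in EES and at 576.5, 561.6 and 600.0 RPKM in LES. Spa17, a calmodulin-binding sperm surface protein of the fibrous sheath list, was the member of that list with all LES libraries (1246, 1131 and 1098 RPKM) above all EES libraries (951.7, 743.1 and 1084 RPKM). Its log2 fold change of 0.34 ± 0.25 (SE) did not pass the test (limma adjusted p = 0.882).

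Counts over these lists were 0 of 11 called for outer dense fibres, 0 of 14 for the fibrous sheath, 0 of 16 for the mitochondrial sheath, 0 of 15 for the coupling of head and tail and 0 of 17 for the perinuclear theca and actin-like proteins, beside 1 of all 13260 tested genes. Their median log2 fold changes lay between -0.17 and 0.09 with all libraries and between -0.06 and 0.04 without EES replicate 2. Libraries overlapped for nearly all members: with all LES above all EES there were 0, 1, 0, 1 and 1 genes, and with all LES below all EES there were 0 in each list. Over all tested genes, the LES libraries lay above all EES libraries for 878 genes (6.62%) and below them for 204 (1.54%).

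**Figure D3:**
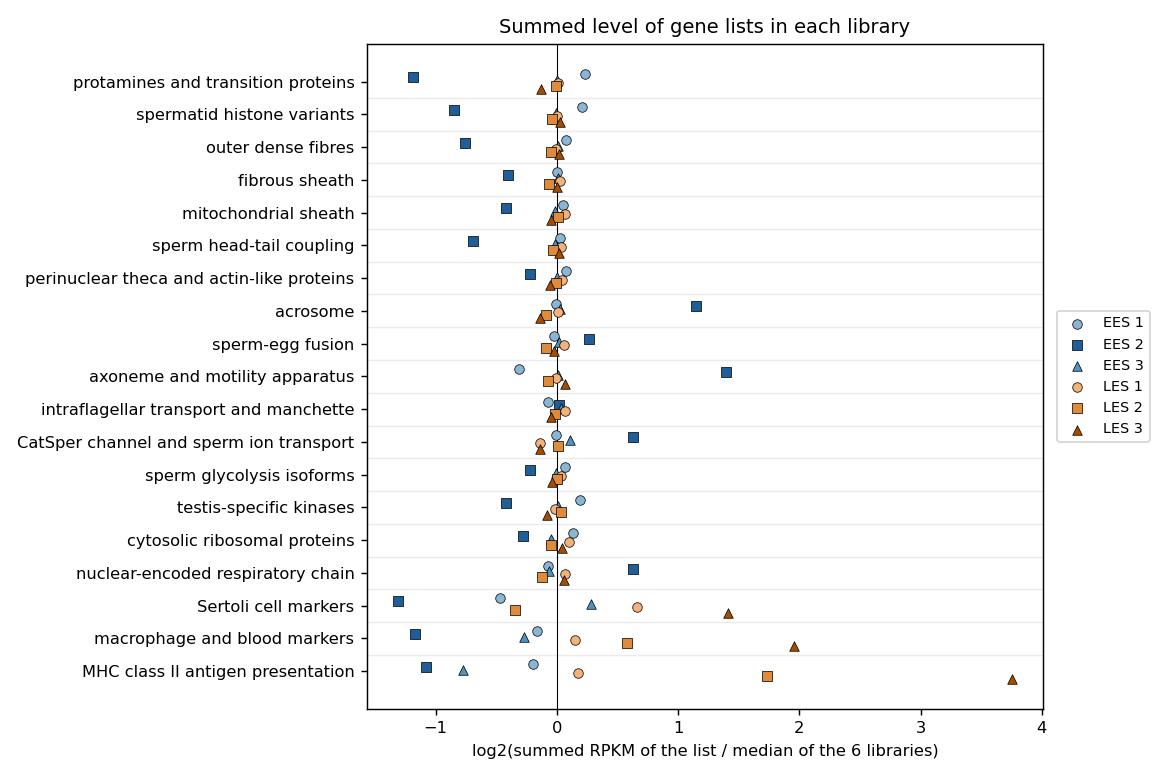
Summed RPKM of 19 gene lists in each library, as the log2 ratio to the median of the 6 libraries (horizontal axis). EES replicate 2 (dark blue square) stands to the left for sperm structure and to the right for the acrosome and the axoneme, and LES replicate 3 (dark brown triangle) stands to the right for the 3 lists at the bottom.

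Genes of the acrosome, the secretory vesicle that covers the sperm nucleus, were set apart by EES replicate 2. Acrv1, an acrosomal matrix protein, was at 3.05, 95.2 and 8.14 RPKM in EES and at 5.20, 4.17 and 7.81 RPKM in LES, against 31.7 ± 5.06 RPKM (SD, n = 3) in RS. Spaca1, a membrane protein that shapes the acrosome, was at 1.11, 154.1 and 8.83 RPKM in EES and at 5.20, 3.26 and 10.7 RPKM in LES, against 59.1 ± 4.12 RPKM in RS. Acr, the protease acrosin, was at 2.28, 72.3 and 6.77 RPKM in EES and at 5.39, 4.31 and 7.56 RPKM in LES, against 98.2 ± 19.8 RPKM in RS. For the 3 genes LES lay inside the range of EES replicates 1 and 3 or just above it, and EES replicate 2 was far above every other elongating spermatid library. Against the RS mean, EES replicate 2 was higher for Acrv1 and Spaca1 and lower for Acr. The acrosome list summed to 1795, 4004 and 1836 RPKM in EES and to 1816, 1702 and 1640.3 RPKM in LES, with 27 of its 31 members highest in EES replicate 2, beside 6921 of all 13260 tested genes. None of its 29 tested members was called, and the median log2 fold change was -0.66 with all libraries and 0.15 without EES replicate 2.

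EES replicate 2 was also the highest library for 9 of 11 genes of sperm-egg fusion and 17 of 23 of sperm ion transport, beside 6921 of all 13260 tested genes. Izumo2, of the sperm-egg fusion list, was lowest there, at 227.0, 184.9 and 231.7 RPKM in EES. In LES it was at 265.0, 235.8 and 225.1 RPKM. Izumo1, the sperm protein that binds the egg, was at 4.70, 44.5 and 5.98 RPKM in EES and at 5.04, 4.77 and 5.20 RPKM in LES. Catsper3, a pore subunit of the sperm calcium channel, was at 2.44, 70.3 and 5.94 RPKM in EES and at 3.57, 3.62 and 4.83 RPKM in LES. Odf3l1, a relative of an outer dense fibre protein, was at 0.947, 83.1 and 5.71 RPKM in EES and at 2.74, 2.58 and 4.17 RPKM in LES. All LES values of Izumo1, Catsper3 and Odf3l1 lay within the range set by EES replicates 1 and 3. Tssk5, of the testis-specific kinases, had a log2 fold change of -2.08 ± 1.09 (SE; limma adjusted p = 0.825), from 0.341, 30.965 and 1.58 RPKM in EES and 0.763, 0.446 and 0.636 RPKM in LES. Without EES replicate 2 it was -0.29.

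Genes of the axoneme, the microtubule core of the tail, behaved likewise as a list: 45 of its 51 members were highest in EES replicate 2, beside 6921 of all 13260 tested genes. The sum of the list was 693.6, 2262 and 865.3 RPKM in EES and 858.0, 817.2 and 904.8 RPKM in LES, and the RS mean was 4338 RPKM. Dnah8, a dynein heavy chain of the sperm tail, was at 9.34, 19.4 and 12.5 RPKM in EES and at 13.3, 11.7 and 16.6 RPKM in LES, against 80.9 ± 8.17 RPKM in RS (SD, n = 3). Median log2 fold changes with all libraries and without EES replicate 2 were -0.33 and 0.26 for the axoneme (0 of 47 called), -0.80 and 0.02 for sperm-egg fusion (0 of 11), -0.45 and 0.23 for sperm ion transport (0 of 21) and -0.85 and 0.07 for round spermatid markers (0 of 16). The sign of each of these 4 medians thus changed with the library, beside medians of 0.03 and 0.22 over all tested genes. The medians of sperm-egg fusion and round spermatid markers were below those of all genes both times.

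EES replicate 2 lay between round and other elongating spermatids for some genes and above both for others. For 6205 genes (46.8% of those tested) its level lay between the 3 RS libraries and the other 5 elongating libraries. For 332 genes it was at 8 RPKM or more and at least 2-fold above both. Acrv1, Spaca1 and Tex36, a testis-expressed gene, were among them, Tex36 with 4.92, 275.0 and 18.1 RPKM in EES, 9.56, 6.30 and 15.2 RPKM in LES and 111.6 ± 16.6 RPKM in RS (SD, n = 3). No gene was 2-fold below both where all RS and other elongating libraries were at 8 RPKM or more, a limit that genes low in RS could not pass. In sorted bulk cells, fewer cells of a type and less RNA per cell cannot be told apart, here and in the results that follow. Whether the sort or the makeup of the cells differed in that library was not tested.

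Genes lower in every LES library than in every EES library numbered 95 among the 3368 tested genes with a stage mean of at least 8 RPKM, and EES replicate 2 was the highest library for 77 of them. The largest by fold change among protein-coding genes was Tmem210, a testis transmembrane protein, at 44.1, 203.5 and 46.0001 RPKM in EES and 42.7, 37.5 and 37.1 RPKM in LES. Its log2 fold change was -0.93 ± 0.55 (SE; limma adjusted p = 0.873), and without EES replicate 2 it was -0.21. Mmp28, a matrix metalloproteinase, was at 4.48, 20.1 and 4.48 RPKM in EES and at 4.09, 3.69 and 4.11 RPKM in LES. Tubb6, a beta tubulin, was at 10.03, 40.3 and 10.5 RPKM in EES and at 9.77, 9.77 and 8.43 RPKM in LES. Atpaf2, an assembly factor of the ATP synthase, and Amotl1, a cell junction protein, had log2 fold changes of -0.84 and -0.84 that became -0.16 and -0.16 without EES replicate 2. The limit of 8 RPKM used stage means that included EES replicate 2, and Mmp28, Atpaf2 and Amotl1 passed it only through that library. Over EES replicates 1 and 3 their means were 4.48, 5.29 and 4.70 RPKM. The 95 genes thus hold some that were admitted by EES replicate 2. Scand1, a SCAN domain protein, kept the largest part of its difference: it was at 13.97, 30.5 and 13.3 RPKM in EES and at 7.89, 10.2 and 11.7 RPKM in LES, with a log2 fold change of -0.86 ± 0.43 (SE; limma adjusted p = 0.778) and of -0.47 without EES replicate 2. So for 5 of these 6 genes most of the difference came from a single library, and for Scand1 the LES libraries were below EES replicates 1 and 3 by more than they were for the others.

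Some genes were higher in every LES library than in every EES library. Of the genes with a stage mean of at least 8 RPKM, the LES libraries were above all EES libraries for 95, as many as were below them. The 6 largest protein-coding ones among these tested genes were Cd74, Fos, H2-Eb1, B2m, H2-Aa and H2-Ab1, of which 5 belong to antigen presentation, and all 6 were highest in LES replicate 3. All but Cd74 passed the limit of 8 RPKM only through that library. Genes below all EES libraries could pass it through EES replicate 2 in the same way, so the equal counts of 95 depend on single libraries. Over LES replicates 1 and 2 the mean was 10.4 RPKM for Cd74. For Fos, H2-Eb1, B2m, H2-Aa and H2-Ab1 it was 3.65, 3.40, 4.08, 2.88 and 6.20 RPKM. MHC class II molecules present peptides on macrophages and other antigen-presenting cells, and their genes are known to be switched on together. The promoters of the alpha chain H2-Aa and the beta chain H2-Eb1 are shown because both genes had the same order of LES libraries. They are 300 bases from 250 before to 50 after the RefSeq start of the gene, in GRCm38.p6, and capitals mark TGACGTCA, the cyclic AMP response element, and the CCAAT box, searched as CCAAT and ATTGG so that both strands are covered.
H2-Aa (chr17:34287774-34288073, minus strand): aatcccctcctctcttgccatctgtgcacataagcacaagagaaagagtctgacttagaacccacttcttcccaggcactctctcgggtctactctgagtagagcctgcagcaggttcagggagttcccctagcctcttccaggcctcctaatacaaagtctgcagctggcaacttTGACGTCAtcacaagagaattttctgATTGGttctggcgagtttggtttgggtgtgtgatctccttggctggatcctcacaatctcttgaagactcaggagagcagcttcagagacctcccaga
H2-Eb1 (chr17:34305617-34305916, plus strand): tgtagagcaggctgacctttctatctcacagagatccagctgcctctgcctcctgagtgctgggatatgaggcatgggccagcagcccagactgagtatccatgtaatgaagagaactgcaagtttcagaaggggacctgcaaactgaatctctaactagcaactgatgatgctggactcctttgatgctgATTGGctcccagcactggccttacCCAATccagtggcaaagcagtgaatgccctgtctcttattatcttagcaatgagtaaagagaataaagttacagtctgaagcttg
In H2-Aa the response element starts 74 bases and ATTGG 48 bases before the start of the gene, and H2-Eb1 holds ATTGG 59 and CCAAT 35 bases before it. Of all 32851 mouse promoters of this length, 1.79% hold TGACGTCA and 37.4% the CCAAT box in either orientation. A match is a description of the letters and not of a bound factor.

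Cd74, the invariant chain that escorts MHC class II (chromosome 18, 60803849 to 60812652), was at 1.33, 0.0737 and 0.339 RPKM in EES and at 3.29, 17.5 and 79.5 RPKM in LES, against 0.00150 ± 0.00259 RPKM in RS (SD, n = 3). Its log2 fold change was 5.61 ± 1.05 (SE) and did not pass the threshold (limma adjusted p = 0.0917). H2-Eb1 was at 0.631, 0.191 and 0.335 RPKM in EES and at 1.25, 5.54 and 28.5 RPKM in LES (4.04 ± 0.84, SE; limma adjusted p = 0.105). H2-Aa was at 0.823, 0.359 and 0.735 RPKM in EES and at 1.32, 4.44 and 21.1 RPKM in LES (3.03 ± 0.76, SE; limma adjusted p = 0.200). The LES libraries did not overlap with EES for any of the 3, and they differed widely among themselves. LES replicate 3 was 24.2 times LES replicate 1 for Cd74, 22.8 times for H2-Eb1 and 15.9 times for H2-Aa.

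Without LES replicate 3 the log2 fold changes were 4.49 for Cd74, 2.90 for H2-Eb1 and 1.99 for H2-Aa, and without both it and EES replicate 2 they were 3.48, 2.49 and 1.63. B2m, the light chain of MHC class I, was at 0.385, 1.04 and 0.470 RPKM in EES and at 1.75, 6.42 and 20.96 RPKM in LES (3.40 ± 0.64, SE; limma adjusted p = 0.0919). It was called without both of those libraries (2.95; limma adjusted p = 0.0238). H2-Ab1, the partner chain of H2-Aa, was at 4.23, 2.12 and 2.91 RPKM in EES and at 4.59, 7.81 and 21.7 RPKM in LES. H2-D1, a heavy chain of class I, was at 0.162, 0.146 and 0.205 RPKM in EES and at 0.6004, 3.41 and 9.99 RPKM in LES, and near-identical class I genes make single members uncertain.

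Immediate-early genes, which cells switch on within minutes of a stimulus, had the same order of libraries. Fos, a subunit of AP-1, was at 0.404, 0.101 and 0.186 RPKM in EES and at 1.66, 5.65 and 25.6 RPKM in LES, with a log2 fold change of 4.91 ± 0.83 (SE; limma adjusted p = 0.0693) and of 3.89 without LES replicate 3. Jun, its partner in AP-1, was at 0.149, 0.0938 and 0.163 RPKM in EES and at 0.682, 1.70 and 7.77 RPKM in LES, with a log2 fold change of 3.88 ± 0.63 (SE; limma adjusted p = 0.0693). Its adjusted p in limma was 0.0284 without LES replicate 3 and 0.0226 without both libraries. Jund, a further AP-1 subunit, was at 48.6, 16.1 and 35.96 RPKM in EES and at 27.97, 34.2 and 32.5 RPKM in LES. Klf4, a zinc finger factor known from round spermatids, was at 1.496, 60.8 and 4.87 RPKM in EES and 3.43, 2.60 and 5.30 RPKM in LES. So Fos and Jun were higher in each LES library than in any EES library, whereas Jund and Klf4 overlapped between the stages.

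Counts for these lists, which were drawn up after the values of Cd74 and Fos were seen, are a description only. Of the immediate-early genes 6 of 11 tested members had all LES above all EES, of MHC class II 5 of 6, and of MHC class I 3 of 4, against 6.62% of all genes, and 0 members were called with all libraries. LES replicate 3 was the highest library for 14 of 17, 9 of 10 and 6 of 7 listed members, beside 3696 of all 13260 tested genes. Their median log2 fold changes were 2.72, 2.40 and 2.61, and 2.44, 2.34 and 2.95 without EES replicate 2. Without LES replicate 3 they were 1.92, 1.5 and 1.87, and without both libraries 1.61, 1.45 and 2.19. MHC class II genes summed to 10.1, 5.48 and 6.76 RPKM in EES and to 13.1, 38.6 and 156.5 RPKM in LES.

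**Figure D4:**
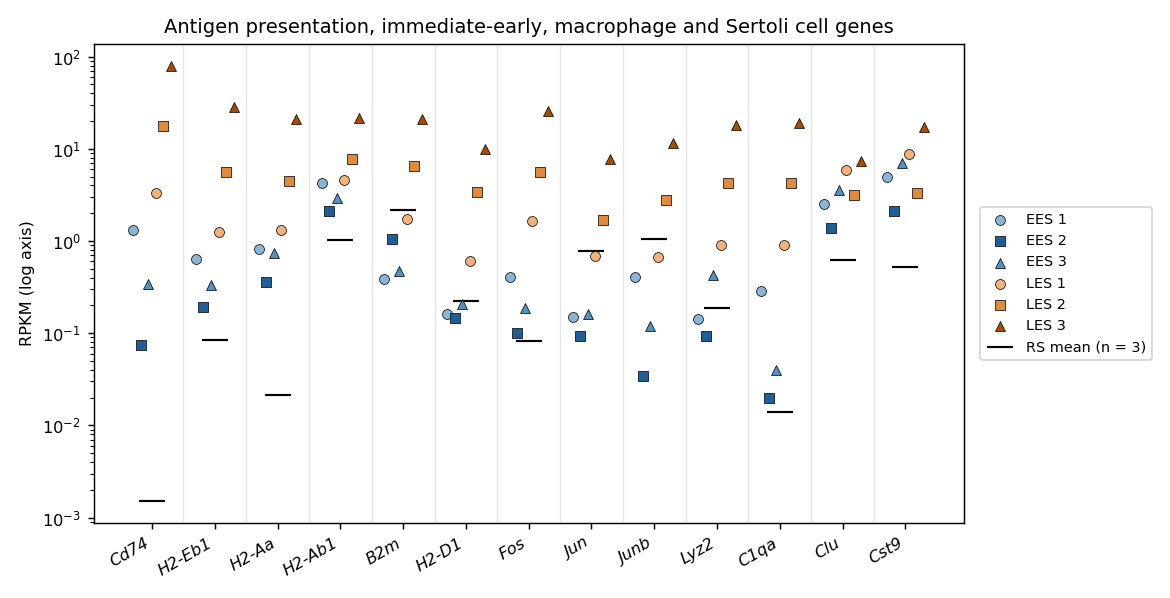
Levels in RPKM (log axis) of 13 genes in each EES (blue) and LES (orange) library, with the round spermatid mean as a black bar. From Cd74 to C1qa LES replicate 3 is the highest library and LES replicate 2 the next, while for Clu and Cst9 LES replicate 2 lies below LES replicate 1.

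Several macrophage markers had the same order of LES libraries, and others did not. Lyz2 and C1qa did not reach 1 RPKM in 3 of the 15 libraries and were not tested. Lyz2, the lysozyme of macrophages, was at 0.143, 0.0941 and 0.426 RPKM in EES and at 0.902, 4.26 and 18.1 RPKM in LES. C1qa, a complement subunit made by macrophages, was at 0.287, 0.0198 and 0.0397 RPKM in EES and at 0.913, 4.23 and 19.1 RPKM in LES, and Csf1r, the macrophage growth factor receptor, was at 0.0822, 0.561 and 0.111 RPKM in EES and at 0.252, 1.08 and 3.56 RPKM in LES. LES replicate 3 was 20.1 times LES replicate 1 for Lyz2 and 20.9 times for C1qa, beside 24.2 times for Cd74 and 15.4 times for Fos. Its ratio to LES replicate 2 was 4.26, 4.50, 4.54 and 4.54 for the same 4 genes. The ratios were not alike for all genes with this order of LES libraries. For H2-Ab1, LES replicate 3 was 4.73 times LES replicate 1 and 2.78 times LES replicate 2. The same ratios were 14.1 and 3.3 for Csf1r, 11.4 and 4.58 for Jun, and 22.8 and 5.15 for H2-Eb1. C1qb, a further complement subunit, overlapped between the stages, at 18.2, 6.79 and 14.4 RPKM in EES and at 17.3, 19.2 and 28.1 RPKM in LES, and made up most of the summed level of its list in EES. Hba-a1, a hemoglobin chain of red blood cells, was at 0.508, 1.28 and 2.04 RPKM in EES and at 2.94, 0.876 and 2.76 RPKM in LES, with LES replicate 2 the lowest of its stage. The list of 10 macrophage and blood markers found in the table summed to 10.3 to 20.7 RPKM in EES and to 25.7 to 89.8 RPKM in LES. Of its members 8 were highest in LES replicate 3, beside 3696 of all 13260 tested genes, and 0 were at 0 in all 6 libraries. What part these cells had in the levels of antigen presentation and immediate-early genes was not tested.

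Markers of Sertoli cells, the somatic nurse cells of the tubule, differed in their order of libraries. Clu, a secreted chaperone of Sertoli cells, was at 2.49, 1.38 and 3.59 RPKM in EES and at 5.92, 3.17 and 7.45 RPKM in LES (log2 fold change 1.16 ± 0.37, SE; limma adjusted p = 0.383). Cst9, a cystatin of Sertoli cells, was at 4.95, 2.09 and 6.98 RPKM in EES and at 8.88, 3.34 and 17.1 RPKM in LES. For Clu and Cst9 LES replicate 2 was the lowest of its stage. Trf, the iron carrier transferrin, had the largest log2 fold change of the list and the order of the macrophage genes, at 0.173, 0.165 and 0.122 RPKM in EES and at 0.405, 0.830 and 2.89 RPKM in LES (2.64 ± 0.54, SE; limma adjusted p = 0.103). The 16 listed markers summed to 9.70 to 29.2 RPKM in EES and 18.96 to 63.96 RPKM in LES, with 15 of 16 highest in LES replicate 3, beside 3696 of all 13260 tested genes, and 0 of 11 tested called. Their defining factor Sox9 was at 0 to 0.0519 RPKM in EES and 0.0572 to 0.0935 RPKM in LES. Insl3, the hormone of Leydig cells, was at 0.461, 0.513 and 0.503 RPKM in EES and at 3.09, 0.429 and 2.20 RPKM in LES, so LES replicate 2 was at the level of EES. Lists of Leydig, peritubular and endothelial, and spermatogonial markers summed to at most 11.6 RPKM in any of the 6 libraries. The part of Sertoli and Leydig cells in the results was not tested.

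Genes of general cell functions also depended on single libraries. Over all 13260 genes EES replicate 1 was the lowest of the 6 libraries for 7192, EES replicate 2 the highest for 6921 and LES replicate 3 the highest for 3696. Piwil1, the piRNA-binding protein of pachytene cells, was at 2.32, 3.63 and 3.43 RPKM in EES and at 4.19, 3.19 and 7.78 RPKM in LES. Snrpb, a core spliceosome protein, was at 0.732, 1.11 and 1.08 RPKM in EES and at 1.96, 1.10 and 3.29 RPKM in LES (log2 fold change 1.00 ± 0.34, SE; limma adjusted p = 0.457). Hspa8, the constitutive heat shock protein, was at 0.922, 2.84 and 1.31 RPKM in EES and at 2.26, 2.07 and 5.55 RPKM in LES, while the spermatid form Hspa1l was at 1368, 608.2 and 1312 RPKM in EES and at 1253, 1388 and 1273 RPKM in LES. The stages overlapped for all 4. In the lists of spliceosome (34 tested), RNA polymerase II (34), piRNA pathway (23), heat shock (27) and respiratory chain (81) genes 0 were called, with median log2 fold changes of 0.18, 0.07, 0.21, 0.11 and -0.09. Without EES replicate 2 these medians were 0.81, 0.58, 0.46, 0.08 and 0.24, and without LES replicate 3 they were -0.02, -0.11, -0.02, 0.06 and -0.20, so the sign changed with a left-out library for all of these lists but heat shock. Over all tested genes the median also changed sign, from 0.03 with all libraries and 0.22 without EES replicate 2 to -0.06 without LES replicate 3. EES replicate 2 was the highest library for 19, 19, 9, 10 and 54 members of these lists and LES replicate 3 for 14, 11, 14, 3 and 14.

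Of the cytosolic ribosomal proteins 13 of 83 tested had all LES above all EES, beside 6.62% of all genes. All LES lay below all EES for 0, beside 1.54% of all genes, and 0 were called. Their median log2 fold change was 0.16, beside 0.03 over all tested genes. Without EES replicate 2 it was 0.09, beside 0.22 over all tested genes. Rplp2, an acidic stalk protein, was at 12.9, 9.33 and 11.97 RPKM in EES and at 14.1, 13.5 and 13.4 RPKM in LES, a log2 fold change of 0.27 ± 0.19 (SE; limma adjusted p = 0.882). Without EES replicate 2 its log2 fold change was 0.13. Rplp0, of the same stalk, was at 578.4, 367.4 and 503.0 RPKM in EES and at 501.8, 473.6 and 468.5 RPKM in LES. Rpl39, a small ribosomal protein with many near-identical copies, had the largest value, 0.0154, 0.0288 and 0.201 RPKM in EES and 0.427, 0.961 and 2.62 RPKM in LES (4.13 ± 0.97, SE; limma adjusted p = 0.177). The list as a whole summed to 5103, 3829 and 4498 RPKM in EES and to 4978, 4501 and 4804 RPKM in LES, ranges that overlap. Of its 84 members 48 were lowest in EES replicate 2, beside 2638 of all 13260 tested genes.

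Most metabolic and signalling genes of spermatids named here overlapped between the stages, and Bax did not. Gapdhs and Pgk2, glycolytic enzymes of the sperm tail, had log2 fold changes of 0.35 (95% interval -0.42 to 1.13) and 0.20 (-0.44 to 0.85). Ldhc, the germ cell lactate dehydrogenase, was at 1148, 1845 and 1331 RPKM in EES and at 1329, 1180.2 and 1111 RPKM in LES. Meig1, a manchette protein needed for spermiogenesis, was at 1119, 1072 and 1159.9 RPKM in EES and at 1291, 1079 and 1070.5 RPKM in LES, against a mean of 1066 RPKM in RS. Bcl2l14, of the Bcl-2 family, was at 290.4, 204.2 and 299.2 RPKM in EES and at 295.8, 293.6 and 306.7 RPKM in LES, whereas Bax, which drives mitochondrial apoptosis, was at 0.0420, 0.0524 and 0.0838 RPKM in EES and at 0.320, 0.111 and 0.440 RPKM in LES (1.96 ± 0.44, SE; limma adjusted p = 0.149). Glycolysis isoforms (19 tested), testis-specific kinases (14), regulators of messenger RNA storage (35), transcription regulators (21), ubiquitin and proteasome genes (33), apoptosis genes (19), autophagy and lysosome genes (23), intraflagellar transport and manchette genes (34) and spermatocyte markers (17) had 0 called members. As 1 of all 13260 tested genes was called (0.00754%), these counts do not set the lists apart. Of the apoptosis genes 4 of 19 tested had all LES above all EES, beside 6.62% of all genes, and 0 had all LES below, beside 1.54%.

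The authors' de novo transcripts added no called locus: of 21515 de novo genes tested, 0 were called (0%), with 1088 at an unadjusted p under 0.05 in limma. Among 5424 tested loci without a GENCODE M21 gene on their strand, the LES libraries were above all EES libraries for 202 (3.72%) and below them for 200 (3.69%), beside 5.54% and 2.45% of all de novo genes. At 8 RPKM or more in a stage mean there were 567 loci, 22 with LES above and 20 with LES below, and EES replicate 2 was the highest EES library for 16 of those 20.

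Of the loci without overlap between the stages, the 2 with the largest fold change in each direction were 281, 956, 2588 and 450 bases of exon long. MSTRG.21423 (chromosome 6, 145932748 to 145933028, minus strand, 1 exon), opposite Sspn, was at 91.9, 36.9 and 68.8 RPKM in EES and at 186.9, 237.7 and 103.0 RPKM in LES (log2 fold change 1.43; limma adjusted p = 0.639). MSTRG.4122 (chromosome 11, 87440215 to 87443120, minus strand, 2 exons), opposite the spermatocyte bridge gene Tex14, was at 9.95, 4.87 and 10.2 RPKM in EES and at 14.5, 12.7 and 11.5 RPKM in LES. MSTRG.11373 (chromosome 17, 65642247 to 65645178, plus strand, 3 exons) was at 5.90, 15.5 and 6.20 RPKM in EES and at 5.78, 5.19 and 4.72 RPKM in LES. MSTRG.11072 (chromosome 17, 37563926 to 37564375, plus strand, 1 exon), opposite the olfactory receptor gene Olfr112, was at 6.92, 17.4 and 7.45 RPKM in EES and at 6.70, 6.49 and 6.25 RPKM in LES. The first 2 were higher in all LES libraries, with the lowest EES value in replicate 2, and the last 2 were lower, with the highest EES value in replicate 2. The last 2 reached 8 RPKM only through that replicate, with means of 6.05 and 7.18 RPKM over EES replicates 1 and 3. Reads of a locus and of the gene opposite cannot be told apart if the libraries do not keep strand.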

How the data were processed

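Expression was taken from tables of log2 values deposited by the authors, of a reference annotation and of a de novo annotation. The values fitted log2(100 × RPKM + 1), a pseudocount of 0.01 RPKM, and whole reads were recovered for 100% of de novo values (tolerance 0.01 read). Per the submitters' processing notes, Trim Galore, STAR and GRCm38/mm10 were used, and per the file headers the de novo annotation was made with StringTie 1.3.4d, whose coordinates were used as deposited. For strandedness and RNA selection, no setting is stated in the labels or headers.

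The deposited log2 values were fitted with limma 3.58.1 in R 4.3.3 (trended empirical Bayes) to 15 libraries of 5 stages, which share a spread estimate, with the contrast LES minus EES. Tested genes had at least 1 RPKM in at least 3 libraries. Calls needed a Benjamini-Hochberg adjusted p under 0.05 and a log2 fold change of at least 1 in size. Scripts were tested on simulated data. The gene table held 2 columns that were not used. Gene positions came from RefSeq, in which 24570 of 24594 gene identifiers were found. This fit did not pair the stages by replicate number.

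The members and lists were chosen with earlier results of these data known, and the lists for MHC class I, MHC class II and immediate-early genes after values were seen. Named genes were 6 check genes, called genes, the 6 largest non-overlapping changes in each direction at 8 RPKM or more, the first 3 tested members and the extremes of each list, and the 2 extreme de novo loci in each direction. Other genes named were chosen after their values were seen. Alternatives covered left-out libraries, scaling, filters, pseudocounts, weights, the replicate block and voom on recovered reads.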

Additional observations from a re-analysis of the deposited data

How the results depend on the processing

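Against 1 gene higher and 0 lower in LES, 0 genes were higher with the 6 EES and LES libraries alone (also without EES replicate 2), on the log2(RPKM + 0.1) and log2(RPKM + 1) scales, with a filter of 1 RPKM in 3 of the 6 libraries, and with voom on recovered reads (734 genes at an unadjusted p under 0.05), also without EES replicate 2. Higher and lower counts were 357 and 55 with array quality weights, 225 and 4 with no filter, 23 and 0 with median centring and 14 and 2 with quantile normalization. Leaving out libraries gave 1 to 57 genes higher and 0 to 4 lower, counting the fit without both EES replicate 2 and LES replicate 3. Without EES replicate 2 there were 16 higher with median centring, 4 with quantile normalization and 15 with no minimum fold change, and without both libraries median centring gave 12 higher and 4 lower.

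Against 0 de novo genes in either direction, array quality weights gave 664 higher and 217 lower, quantile normalization 9 and 3, median centring 3 and 0, and no filter 1 and 0. Leaving out libraries gave 0 to 40 higher and 0 to 2 lower, and median centring without both libraries gave 2 and 2. The cause was not tested for any of these changes.

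With the replicate block, 0 genes were higher and 0 lower, with 15 libraries or with 6. Same-numbered EES and LES libraries had correlations of 0.003, -0.252 and 0.016 in their deviations from stage means. With 3 libraries per stage, these values cannot show whether same-numbered libraries came from the same animals or the same sort. Not every library correlated best with its own number. Rab26os had limma adjusted p-values from 0.000121 to 1.0 over its alternatives. Of 151 named genes 70 changed direction without EES replicate 2 and 7 without LES replicate 3.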
